A study of Laxus oneistus with 16 samples.

Results

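*Laxus oneistus* is a marine nematode that carries sulfur-oxidizing bacteria on its cuticle and moves between oxygenated and anoxic sand. The comparison described here set 4 libraries of nematodes kept under anoxia without sulfide (A) against 3 libraries kept under hypoxia (H), out of 16 libraries in all. Each library was made from the rRNA-depleted RNA of a batch of 50 adults, picked by hand after collection in the field and kept for 24 h in the dark in filtered seawater. The A vials stood in glove bags flushed with nitrogen, and the H vials stood open to air. Libraries from anoxia with 11 µM sulfide added (AS, 3 libraries) and from vials submerged in air-bubbled water (O, 6 libraries) are given beside the results where they bear on them, and the AS libraries shared the estimate of the spread. All batches carried their symbionts, whose reads the authors removed. The animals came from multiple field trips, and which trip a library came from is not given in the sources used here. Of the 27984 transcripts in the files, 17186 had at least 10 reads in at least 3 libraries of A or of H, and all of these were tested.

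Animals without oxygen can no longer pass electrons to it through the respiratory chain. Many parasitic and marine invertebrates then ferment glycogen, turn phosphoenolpyruvate into malate, reduce malate through fumarate to succinate, and release propionate through methylmalonyl-CoA. In *Caenorhabditis elegans*, oxygen deprivation also engages chaperones, protein degradation and other stress responses. Globins, which bind oxygen, and catalases, which break down hydrogen peroxide, are both expressed in this nematode, and the whole animals also held reads of muscle genes such as paramyosin (*unc-15*) and myosin heavy chains (*unc-54*). Gene names are those of matches in other species, mostly *C. elegans*, and roles are given on that basis.

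The A libraries held between 15754749 and 17673789 reads, against 13155250 to 15123804 reads in the H libraries. A replicates 3 and 5 stood apart, because 1.16% and 1.45% of their reads lay on 6212 transcripts that had fewer than 10 reads in all libraries other than these and O replicates 2, 3 and 5. In A replicates 1 and 2 this share was 0.00295% and 0.00364%, against at most 0.00544% in the H libraries. These low shares follow from how the 6212 were defined and are a description. By the same definition none of these transcripts could have 10 reads in 3 A libraries, and none was tested. Libraries of the same condition were about as far from each other as from those of the other condition. On the log2 CPM scale (CPM are reads divided by the scaled library total and multiplied by 1000000), the mean distance was 119 between A and H libraries (82.2 to 149, 12 pairs), 116 among A libraries (94.9 to 139, 6 pairs) and 111 among H libraries (102 to 117, 3 pairs). The shortest distance of all joined A replicate 1 with H replicate 2.

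Anoxia without sulfide and hypoxia differed in few transcripts. A transcript was called where edgeR's quasi-likelihood F-test gave a false discovery rate (FDR, the adjusted p) up to 0.05 and the change reached 1.5-fold, and 18 transcripts passed, 0.105% of those tested. Of these, 7 were higher in A (0.0407%) and 11 were lower in A (0.064%). The A and H libraries did not overlap in any of the 18, whereas they did not overlap in 9.03% of all tested transcripts. The 18 were chosen for their difference between these same libraries, so that this count is a description. At an unadjusted p under 0.05 there were 1405 transcripts (8.18%), 822 higher (4.78%) and 583 lower in A (3.39%). The median log2 difference over all tested transcripts was 0.01. Without H replicate 1 no transcript was called, with 1052 at an unadjusted p under 0.05, and without H replicate 3 only 2 were called. Without A replicate 2 there were 11 calls, and without A replicate 3 there were 32. By contrast, 138 transcripts passed in edgeR's likelihood ratio test and 137 in DESeq2, and all 18 were among them in both.

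**Figure D1:**
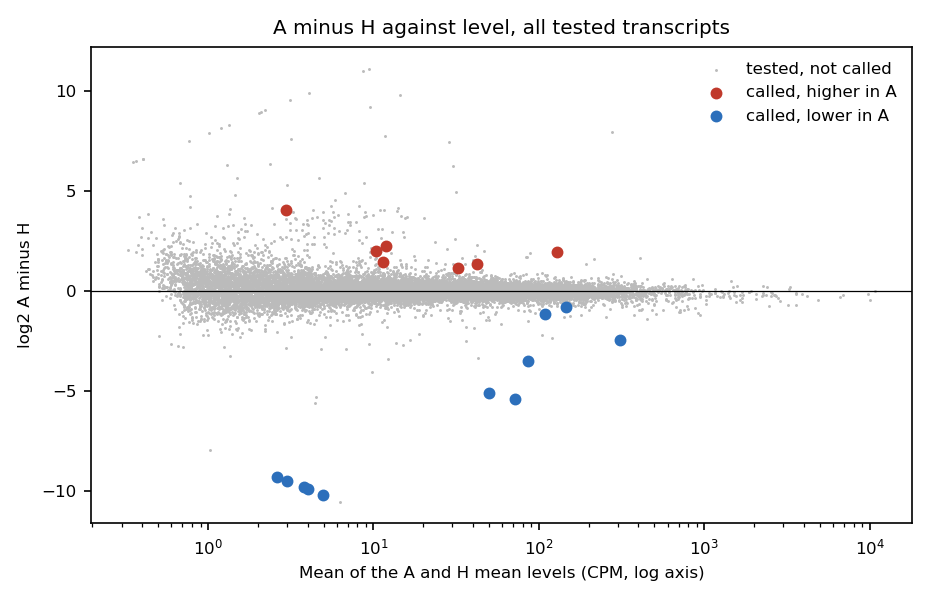
The log2 difference A minus H of each tested transcript is plotted against the mean of its A and H levels (CPM, log axis); red points are the 7 transcripts called higher in A, blue points the 11 called lower in A, and grey points are not called. Most points lie near 0, and 5 blue points lie below −9, where no A library had a read.

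*C13A6.1* (TRINITY_DN104631_c0_g1_i1_9dedup) was the only called transcript that could be paired with a gene name. It had no read in any A library, against 45, 176 and 122 reads in the H libraries. All H libraries thus held it and all A libraries lacked it. The transcript passed the read filter only through the H libraries, so that its adjusted p is a description. The mean level was 8.04 ± 4.14 CPM in H (SD, n = 3), and A was at least 179-fold lower, taking the 0.045 CPM that 3 reads over all A libraries would give (adjusted p = 0.0234). It also had no read in the AS and O libraries. The call was lost without H replicate 1 (adjusted p = 0.0758), 2 (0.0707) or 3 (0.104). In RNA of whole animals, fewer cells that express a transcript and less of it per cell cannot be told apart.

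The unmatched transcripts with the largest falls had the same pattern. TRINITY_DN17260_c0_g1_i1_9dedup had no read in any A library, against 177, 118 and 112 reads in the H libraries, and was at least 220-fold lower in A (adjusted p = 0.0144). TRINITY_DN160943_c0_g1_i1_9dedup also had none in A, against 168, 106 and 43 reads in H, and was at least 170-fold lower in A (adjusted p = 0.0252). Both also lost their call without H replicate 1 (adjusted p = 0.0758 and 0.15) or 3 (0.0604 and 0.0635), and TRINITY_DN160943_c0_g1_i1_9dedup without H replicate 2 (0.0707). Of the 11 called falls, 5 had no read in any A, AS or O library. These 5 passed the read filter only through the H libraries, so that their adjusted p values are a description. With all 16 libraries and an added term that set A 3 and 5 and O 2, 3 and 5 apart, all 5 kept their direction but not their call (adjusted p from 0.0516 to 0.171). Counting transcripts that were not called, 8 transcripts had at least 10 reads in every H library and none in the 13 others, with 13 to 263 reads per H library. No transcript had at least 10 reads in every library of A, of AS or of O and none elsewhere. These counts are not alike, since A and O had to pass in 4 and 6 libraries, against 3 for H. The paper lists no AS reads among those assembled into its *de novo* transcriptome. A transcript found only in AS would thus not have been assembled. What these 8 transcripts are is not given in the sources used here beyond the *C13A6.1* match, and whether all H batches shared a field collection was not tested.

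The other 6 called falls were present in both conditions. The largest, with log2 A minus H of −5.39 ± 0.83 (SE), had 3.32, 3.64, 6.34 and 0 CPM in the A libraries, against 273, 45.8 and 105 CPM in H. The next, at −5.13 ± 0.70, had 2.27, 2.91, 5.89 and 0.0659 CPM in A, against 55.9, 100 and 136 CPM in H. A replicate 5 was lowest in both, and every A library lay far below every H library. The third, at −3.51 ± 0.39, had 7.51 to 16.4 CPM in A, against 67.8 to 244 CPM in H, and had the smallest adjusted p of all (0.0135). In all 3 the AS libraries reached at most 14.9 CPM and lay below every H library, while the O libraries ranged from 4.91 to 286 CPM.

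Of the remaining 3 falls, the largest had 125, 70.3, 127 and 56.2 CPM in A, against 574, 352 and 658 CPM in H, a log2 difference of −2.48 ± 0.36. Its AS (67.8 to 176 CPM) and O libraries (118 to 214 CPM) all lay below the H libraries too, so that H was the high condition among the 4. The smallest falls were −1.16 ± 0.19 and −0.83 ± 0.12. The smaller of them was tight in both conditions, with 103 to 109 CPM in A against 175 to 195 CPM in H. In every one of the 11 falls, each AS library was below each H library, as in 12.1% of all tested transcripts. These transcripts were chosen for high values in the same H libraries, so that this count is a description.

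**Figure D2:**
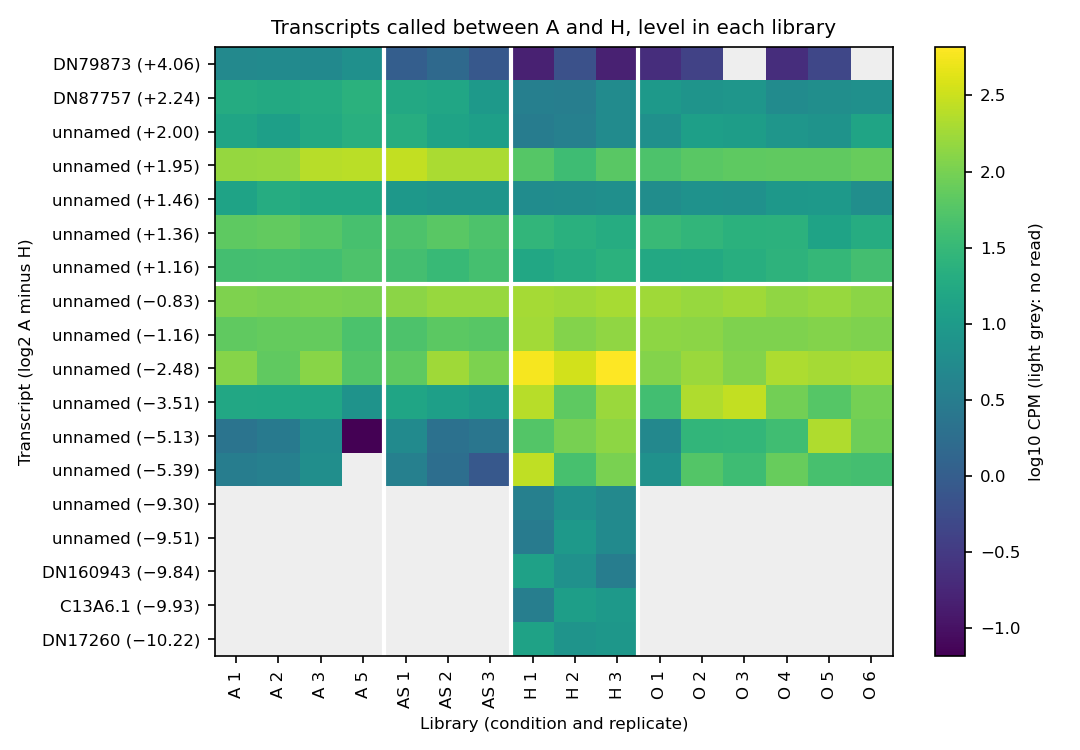
Each row is 1 of the 18 called transcripts, named by its match, by the first part of its identifier for the 4 unmatched transcripts that the rule named, or as unnamed, with its log2 A minus H in brackets; columns are the 16 libraries by condition and colour is log10 CPM. The 5 bottom rows have reads in the H libraries and in no other, and the 7 top rows are higher in all 4 A libraries than in all 3 H libraries.

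The rises were smaller. TRINITY_DN79873_c0_g1_i2_9dedup had 5.04, 5.38, 5.13 and 6.72 CPM in the A libraries, against 0.152, 0.649 and 0.152 CPM in H. It was high in all A libraries and nearly absent from H, with log2 A minus H of 4.06 ± 0.57 (SE, adjusted p = 0.0234). This transcript passed the read filter only through the A libraries, so that its adjusted p is a description. The AS libraries had 0.819 to 1.53 CPM and the O libraries at most 0.473 CPM, both below every A library. The call was lost in 6 of 25 alternative analyses, among them the one without A replicates 3 and 5 (adjusted p = 0.0555). TRINITY_DN87757_c0_g1_i1_9dedup had 18.9, 17.9, 18.8 and 23.2 CPM in A, against 3.50, 3.38 and 5.63 CPM in H. The A libraries differed little among themselves and none came near the H range, and the log2 difference was 2.24 ± 0.28 (adjusted p = 0.0144). This transcript remained called in 24 of the 25 and was lost only without H replicate 1 (adjusted p = 0.0889).

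The other 5 rises lay between 1.16 and 2.00 log2 units. The rise with the most reads had 153, 161, 246 and 254 CPM in A, against 57.4, 38.1 and 62.5 CPM in H, a log2 difference of 1.95 ± 0.24. Its AS libraries (206 to 284 CPM) stood with A and its O libraries (49.6 to 77.0 CPM) stood near H. In all 7 rises, which were chosen for low values in the same H libraries, every AS library was above every H library, as in 15% of all tested transcripts. In 3 of the 7 every AS library reached the range of the A libraries, and in 3 every AS library stayed below it. The O libraries all stayed below the A libraries in 5 of the 7. These transcripts were also chosen for high values in the same A libraries. The shares over all tested transcripts were not counted, so that these counts against A are descriptions. All 7 rises lacked a gene name in the sources used here.

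The largest fitted rises were not called. No H library had a read of 15 tested transcripts, and 12 of these had between 12 and 584 reads in A replicates 2, 3 and 5 but none in A replicate 1. Their fitted differences ranged from 6.62 to 11.13 log2 units, but the smallest adjusted p was 0.299. All 12 passed the read filter only through the A libraries, so that these values are a description. All 12 also had reads in O replicate 2 (1 to 123), while no other O library had more than 1. Their reads thus lay almost wholly in 3 of the 4 A libraries and in 1 O library.

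No listed transcript of energy metabolism was called, and called transcripts without a gene name could not be placed in a list. Between them, 17 functional lists held 144 transcripts, of which 143 were tested. None was called by edgeR's quasi-likelihood test, by its likelihood ratio or exact test, by DESeq2 or by limma, and the smallest adjusted p in edgeR's quasi-likelihood test was 0.368. At an unadjusted p under 0.05 there were 11 (7 higher and 4 lower in A), beside 8.18% of all tested transcripts. The precision was such that 64 of the 143 had a 95% interval within 1.5-fold of no difference, beside 27.5% of all tested transcripts.

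Among the enzymes of the malate route, the list of phosphoenolpyruvate carboxykinase, the citric acid cycle and malate dehydrogenase had 4 members above and 5 below 0, with a median of −0.12 and a range from −0.26 to 0.21. For 7 of its 9 members the interval stayed within 1.5-fold. Fumarase (*fum-1*), which interconverts fumarate and malate, had 410 ± 33.6 CPM in A (SD, n = 4) and 480 ± 44.8 CPM in H (SD, n = 3), a log2 difference of −0.23 (95% interval −0.52 to 0.07). A malate dehydrogenase match (*mdh-1*, TRINITY_DN94238_c0_g1_i3_9dedup) had 163 ± 25.3 CPM in A and 140 ± 14.2 CPM in H, a difference of 0.21 (−0.11 to 0.54). Both intervals reached across 0.

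Of the 4 transcripts of propionyl-CoA metabolism, 3 had intervals within 1.5-fold. Propionyl-CoA carboxylase subunit beta (*pccb-1*) had 335 ± 41.9 CPM in A and 341 ± 26 CPM in H, a log2 difference of −0.03 (−0.38 to 0.33). The fourth, a low transcript annotated to methylmalonyl-CoA metabolism, had 0.720, 3.25, 3.20 and 1.58 CPM in A, against 0.456, 0.389 and 0.837 CPM in H. A replicate 1 lay inside the H range, and the difference of 1.95 ± 0.72 was not called (adjusted p = 0.487). Only the A libraries brought this transcript past the read filter, so that its adjusted p is a description.

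In glycolysis, 4 of 6 members had intervals within 1.5-fold and the median difference was −0.05 (−0.23 without A replicates 3 and 5). The glyceraldehyde-3-phosphate dehydrogenase match with more reads (*gpd-3*, TRINITY_DN79428_c0_g2_i1_9dedup) had 557 ± 99.6 CPM in A and 636 ± 172 CPM in H, with an interval of the log2 difference from −0.62 to 0.24. The 12 transcripts of the respiratory chain, ATP synthase and nucleotide exchange had a median of 0.11 and a range from −0.28 to 0.51, and 10 of them were above 0, but the median was −0.03 without A replicates 3 and 5. A nucleoside diphosphate kinase match (*ndk-1*, TRINITY_DN52354_c1_g1_i3_4dedup) had 85.4 ± 5.35 CPM in A and 93.8 ± 5.46 CPM in H. Its log2 difference of −0.14 had an interval from −0.39 to 0.11. *ZK673.2*-like had 73.9 ± 14.6 CPM in A and 58.0 ± 7.27 CPM in H, with an interval from −0.04 to 0.74.

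**Figure D3:**
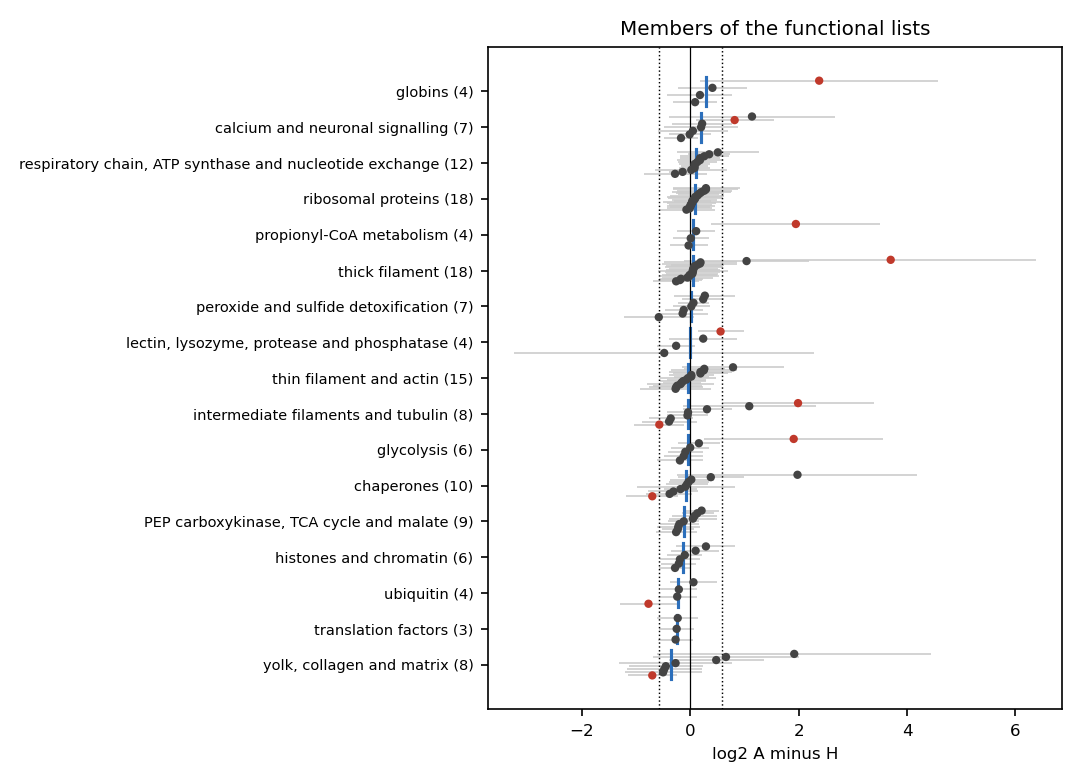
Each point is a member of a functional list at its log2 A minus H, with grey lines for the 95% interval, red points for an unadjusted p under 0.05 and blue bars for list medians; the number tested is in brackets and dotted lines mark 1.5-fold. List medians lie between −0.36 (yolk, collagen and matrix) and 0.30 (globins), and no point was called.

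Globins had a median of 0.30, and all 4 were above 0, but without A replicates 3 and 5 the median of the 3 that could then be tested was −0.11. The *globin-domain* transcript with the smallest p had 2.44, 0.224, 0.641 and 1.25 CPM in A, against 0, 0.325 and 0.304 CPM in H, so that the ranges overlapped at very low reads. Its difference of 2.38 ± 1.01 was not called (adjusted p = 0.571). This globin transcript passed the read filter only through the A libraries, so that its place above 0 and its adjusted p are a description. For detoxification of peroxide and sulfide the median was 0.02 over 7 members (−0.04 without A replicates 3 and 5), with none at an unadjusted p under 0.05. *C46A5.4*-like had 1351 ± 628 CPM in A and 2015 ± 418 CPM in H, and a thiosulfate sulfurtransferase match (TRINITY_DN89863_c1_g1_i4_9dedup), an enzyme that acts on sulfide-derived sulfur, had 181 ± 43.3 CPM in A and 153 ± 1.61 CPM in H. Neither was called (adjusted p = 0.675 and 0.780).

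The libraries of A and H did not overlap for 5 of the 143 list members, *hsp-1*, *sqst-1*-like, *tbb-4*, *ig-h3-like-2* and *nex-2*, beside 9.03% of all tested transcripts. The constitutive HSP70 chaperone *hsp-1* had 3022, 2133, 2621 and 1968 CPM in A, against 5286, 3097 and 3530 CPM in H. The gap between the highest A and the lowest H library was narrow, H replicate 1 lay far above the rest, and the log2 difference of −0.70 ± 0.22 was not called (adjusted p = 0.380). The 10 chaperones, *hsp-1* among them, were mixed, with 3 above 0 and a median of −0.07 (−0.31 without A replicates 3 and 5).

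*sqst-1*-like, a match of the autophagy receptor that delivers ubiquitinated proteins for degradation, had 1793, 1325, 2312 and 1899 CPM in A, against 4047, 2361 and 2954 CPM in H. As for *hsp-1*, H replicate 1 was the highest library, and the difference of −0.77 ± 0.24 was not called (adjusted p = 0.389). The polyubiquitin match *ubq-1-3* had 713 ± 156 CPM in A and 684 ± 116 CPM in H, a log2 difference of 0.06 (−0.37 to 0.49). The 4 members of the ubiquitin list had a median of −0.22.

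*ig-h3-like-2*, a match of an extracellular matrix adhesion protein of vertebrates, had 3553, 2722, 2588 and 2077 CPM in A, against 5413, 4237 and 3666 CPM in H. Its difference of −0.70 ± 0.21 was the one with the smallest p of all list members, and it was not called (adjusted p = 0.368). The beta-tubulin *tbb-4* had 1252 ± 270 CPM in A and 1863 ± 494 CPM in H, a difference of −0.57 ± 0.21 (adjusted p = 0.487). The annexin *nex-2*, a calcium-dependent membrane-binding protein, was the only member of the 5 that was higher in A, with 271, 317, 248 and 601 CPM in A against 216, 226 and 168 CPM in H. A replicate 5 was the source of much of this mean, and the difference of 0.82 ± 0.33 was not called (adjusted p = 0.534).

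**Figure D4:**
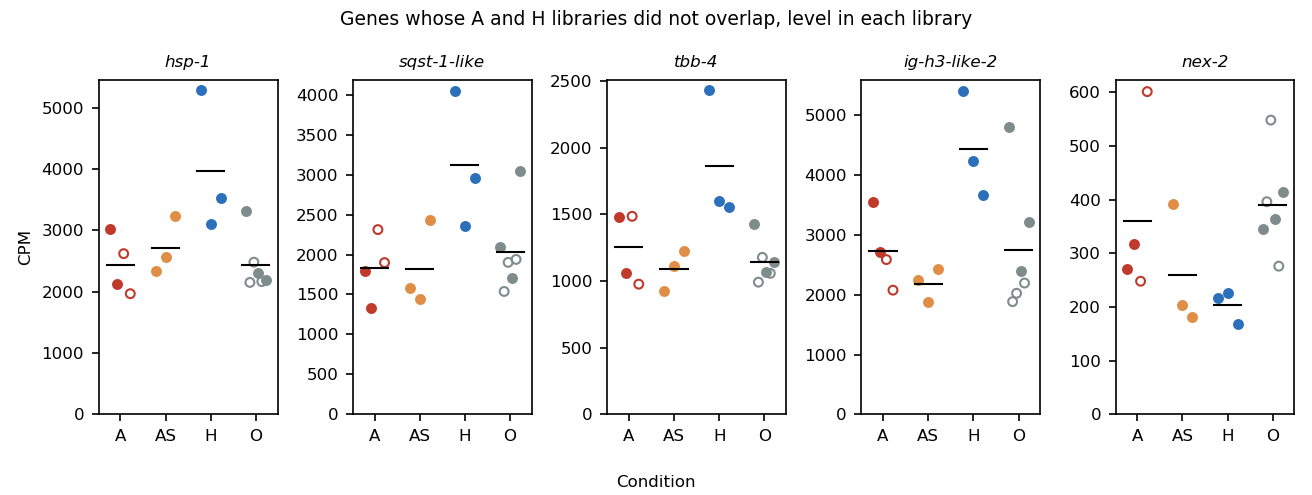
CPM of each library for the 5 list members whose A and H libraries did not overlap, with black bars for condition means; open circles are the 5 libraries with additional transcripts (A 3 and 5, O 2, 3 and 5). The H library with the highest value is replicate 1 in *hsp-1*, *sqst-1*-like, *tbb-4* and *ig-h3-like-2*, and the AS and O libraries overlap the A libraries in all 5 panels.

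Some matches with few reads were high only in particular A libraries. A myosin heavy chain match (*unc-54*, TRINITY_DN78019_c0_g1_i2_9dedup) had 1.16, 0.952, 8.78 and 54 CPM in A, against 2.05, 0.519 and 1.14 CPM in H. Only A replicates 3 and 5 lay above the H range, as did O replicates 2, 3 and 5 with 10.9, 31.2 and 52.3 CPM. The fitted difference was 3.70 ± 1.23 with them and −0.20 without A replicates 3 and 5. Only the A libraries brought this match past the read filter, so that its fitted difference is a description.

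An intermediate filament match (*ifa-1*, TRINITY_DN83970_c0_g2_i1_9dedup) had 21.2, 17.3, 87.3 and 171 CPM in A, against 21.8, 18.9 and 15.1 CPM in H, and its difference was 1.99 with A replicates 3 and 5 and 0.06 without them. The *gpd-3* match with fewer reads (TRINITY_DN80994_c0_g1_i1_9dedup) had 4.15, 4.48, 18.1 and 54.1 CPM in A, against 7.84, 3.96 and 4.26 CPM in H, and its difference was 1.91 with these libraries and −0.29 without. The endoplasmic reticulum HSP70 match *hsp-3* had 0.609, 0.224, 8.84 and 11.5 CPM in A, against 1.52, 0.779 and 1.67 CPM in H, with differences of 1.98 and −1.64. All of these differences were thus absent or turned round in A replicates 1 and 2. Of the 822 transcripts higher in A at an unadjusted p under 0.05, 136 (16.5%) had a mean in A replicates 3 and 5 more than 4 times that in A replicates 1 and 2, against 1.41% of all tested transcripts. The 822 were chosen for high values in these same A libraries, so that this share is a description. The part of the additional transcripts in these values was not tested.

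**Figure D5:**
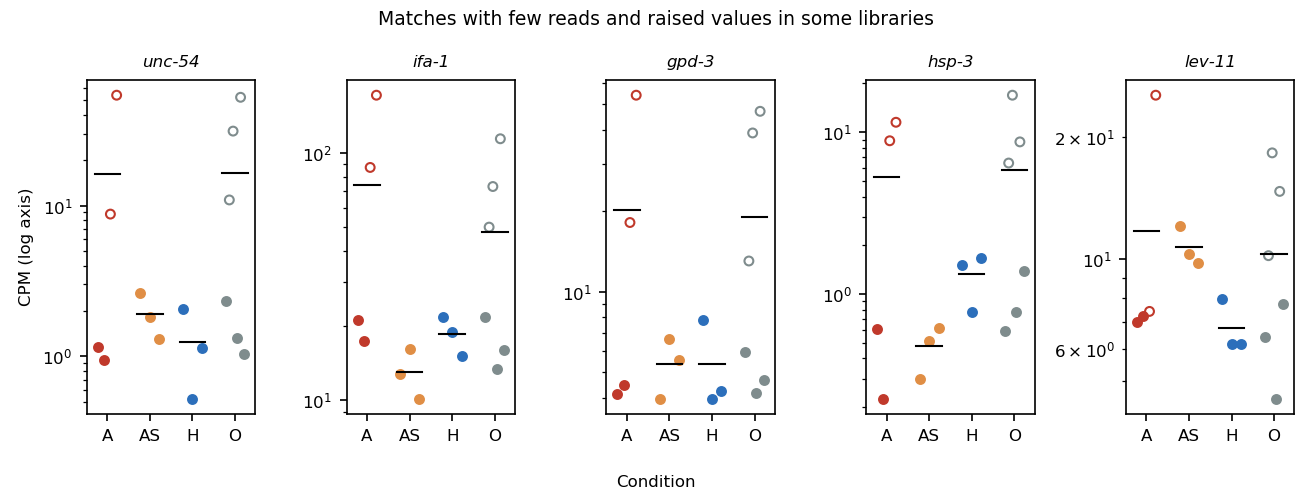
CPM of each library on a log axis for 5 matches with few reads, with black bars for condition means and open circles for the 5 libraries with additional transcripts. A replicates 3 and 5 lie above all H libraries in *unc-54*, *ifa-1*, *gpd-3* and *hsp-3*. A replicates 1 and 2 do so in none of the 4. In *lev-11*, A replicate 5 is the only A library above all H libraries, and all AS libraries and O replicates 2, 3 and 5 also lie above them.

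Muscle and cytoskeleton lists had medians near 0 with all A libraries in, while single members lay farther off. Members ranged from −0.26 to 3.70 in the thick filament list and from −0.27 to 0.79 in thin filament and actin. In intermediate filaments and tubulin the range was −0.57 to 1.99. The thick filament list had a median of 0.05 over 18 members (−0.19 without A replicates 3 and 5), and its paramyosin match *unc-15-2* had 2052 ± 317 CPM in A and 2448 ± 577 CPM in H (log2 difference −0.26, interval −0.68 to 0.17). Thin filament and actin transcripts had a median of −0.04 over 15 members (−0.22 without A replicates 3 and 5). Troponin T (*tnt-2*) had 1297 ± 201 CPM in A and 1528 ± 476 CPM in H, and a low tropomyosin match (*lev-11*, TRINITY_DN64032_c0_g1_i1_9dedup) had 25.4 CPM in A replicate 5 but 6.98 to 7.43 CPM in the other A libraries and 6.77 ± 1.05 CPM in H. Intermediate filaments and tubulin had a median of −0.04 over 8 members (−0.15 without A replicates 3 and 5).

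The 18 ribosomal protein transcripts had a median of 0.08 and a range from −0.07 to 0.29, and 15 were above 0, but without A replicates 3 and 5 the median was −0.18. *rpl-33* had 330 ± 109 CPM in A and 276 ± 42.0 CPM in H, and *rpl-14* had 385 ± 55.8 CPM in A and 403 ± 85.4 CPM in H. The 3 translation factor transcripts were all below 0 (−0.27 to −0.23). The poly(A)-binding protein *pab-1* had 3800 ± 401 CPM in A and 4585 ± 483 CPM in H, with an interval of the log2 difference from −0.60 to 0.05. Histone and chromatin transcripts had a median of −0.14 over 6 members. The histone *his-57* had 93.8 ± 5.85 CPM in A and 114 ± 19.7 CPM in H, and *hmg-1.1*-like, a match of a high-mobility-group chromatin protein, had 124 ± 44.7 CPM in A and 101 ± 0.896 CPM in H.

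Yolk, collagen and matrix transcripts had the lowest median of the lists (−0.36 over 8 members). Without A replicates 3 and 5 this median was −0.17 and no longer the lowest. The collagen match *col-113*-like had 0.849 ± 0.756 CPM in A and 0.225 ± 0.138 CPM in H, too few reads to place it. This match passed the read filter only through the A libraries. Immune and digestive transcripts had a median of −0.01 over 4 members (−0.33 without A replicates 3 and 5). The *plasminogen-like* transcript, a match of a serine protease precursor, had 240, 244, 296 and 306 CPM in A, against 246, 159 and 146 CPM in H. H replicate 1 lay inside the A range, and the difference of 0.56 ± 0.20 was not called (adjusted p = 0.439). The galectin *lec-3* had 973 ± 135 CPM in A and 1161 ± 151 CPM in H, and the 14-3-3 protein *ftt-2* had 760 ± 49.9 CPM in A and 855 ± 149 CPM in H. The acid phosphatase match *acp-7*-like, singled out after its values were seen, had 2350, 2.30, 5591 and 8319 CPM in A, against 13206, 2625 and 1178 CPM in H. A replicate 2 had 41 reads of it, while the other 15 libraries had between 14036 and 173605, and without that library the A range lay inside the H range.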

How the data were processed

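Rows of the deposited files are transcripts of the authors' *de novo* transcriptome. Each deposited value is an expected count that the authors estimated with RSEM for a transcript, without normalization. The authors' processing notes name FastQC, Trimmomatic, Bowtie2 and RSEM 1.3.1, and symbiont reads had been removed. Because RSEM divides reads among similar transcripts, 35.6% to 47.9% of the values per library were fractional, and paralogs can share reads. Values were rounded and fitted with edgeR 4.0.16 in R 4.3.3 (TMM scaling, quasi-likelihood F-test, a mean per condition, 10 libraries of A, AS and H, contrast A minus H, Benjamini-Hochberg adjustment over 17186 transcripts). Standard errors and 95% intervals come from the F statistic and its degrees of freedom, and the fit was tested on simulated data. CPM were scaled over all 16 libraries, not per length. Each library is a separate batch of animals, taken as a replicate. Totals of 13155250 to 17673789 reads in the 10 fitted libraries left a median SE of 0.60 log2 units in the 4297 transcripts with the lowest CPM and 0.17 in the 4297 with the highest.

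Members and lists were chosen with earlier results of these data known. Lists came from the study's tables of top transcripts and proteins and the used part of its annotation table, whose own test columns were not used, so 154 loci had a name or match and lists were only described. Named are *C13A6.1*, the 2 largest rises and 2 largest falls among unmatched calls whose A and H libraries did not overlap (10 reads or more in each library of the higher condition), and in each list the member with the smallest p in each direction (only the smallest where under 4 were tested). Alternatives were other scalings (DESeq2 size factors, upper quartile, none), filters, tests (DESeq2 1.42.0, limma 3.58.1 voom with quality weights, edgeR's likelihood ratio, exact and glmTreat tests), sets of libraries, a replicate block and each library left out. Plots were drawn with Python 3.11.15.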

Additional observations from a re-analysis of the deposited data

Results flagged for a closer look

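Among 71 sets of 4 A or 6 O libraries checked for a library far from the others, 6 had one. For normally distributed values chance gives about 1 in 20, and whether these values are so distributed was not tested. The sets of the 5 called transcripts without a read outside H were counted but could not be flagged. In A replicate 5, *unc-54* (TRINITY_DN78019_c0_g1_i2_9dedup) had 54 CPM beside 0.952 to 8.78 CPM in the other A libraries, *lev-11* (TRINITY_DN64032_c0_g1_i1_9dedup) had 25.4 CPM beside 6.98 to 7.43 CPM, and *rpl-33* had 493 CPM beside 261 to 286 CPM. The called fall TRINITY_DN95874_c9_g2_i5_9dedup had 7.51 CPM in A replicate 5 beside 15.5 to 16.4 CPM in the others, so this library lay even farther from H. In A replicate 3, *his-57* had 103 CPM beside 90.2 to 92.0 CPM. The called fall TRINITY_DN50807_c0_g2_i1_4dedup had 222 CPM in O replicate 5 beside 4.91 to 85.5 CPM in the other O libraries. Transcripts left out of the test took 1.16% of the reads of A replicate 3 and 1.45% of those of A replicate 5. The H libraries had 0.00264% to 0.00544%, a low share that follows from how these transcripts were defined.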

How the results depend on the processing

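The count of 18 called transcripts (7 higher and 11 lower in A) was between 12 and 27 under 13 of 18 alternatives that left out no single library. This range was set around the main count. The alternative that kept the additional transcripts tested the same transcripts as the main fit, so it could not differ. The count rose to 138 with edgeR's likelihood ratio test, 137 with DESeq2 and 118 with edgeR's exact test. Of the DESeq2 calls, 65.0% were higher in A, against 38.9% of the 18. It was 10 with only the A and H libraries and 483 without A replicates 1 and 2 (453 higher in A). With total counts alone, 47.1% of 17 calls were higher. Leaving out single libraries gave 0 (edgeR, without H replicate 1) to 32 (without A replicate 3). With the replicate block it was 24 (14 higher and 10 lower in A), of which 10 were among the 18. The main fit did not take the numbers as pairs. Deviations of same-numbered A and H libraries correlated at 0.225, 0.098 and 0.257, against −0.393 to 0.216 for libraries of different numbers. A replicate 2 correlated best with H replicate 3 (0.112), and A replicate 5 had no partner. The paper states that replicate incubations began at the same time, but not whether this held across conditions. Whether same-numbered libraries shared a collection or a start was not tested. Of the 37 named transcripts, 27 kept their direction under every alternative that tested them. Without A replicates 3 and 5, the log2 difference turned to −1.64 for *hsp-3*, −0.29 for *gpd-3* (TRINITY_DN80994_c0_g1_i1_9dedup), −0.20 for *unc-54*, −0.20 for *ubq-1-3*, −0.05 for *hmg-1.1*-like, −0.01 for *rpl-33* and 0.10 for *pccb-1*, and the ribosomal protein median was −0.18. With all 16 libraries and an added term that set A 3 and 5 and O 2, 3 and 5 apart, it was −1.23 for *hsp-3*, −0.20 for the same *gpd-3*, −0.12 for *ubq-1-3* and 0.04 for *pccb-1*, which was also 0.04 with total counts. Without A replicates 1 and 2, *rpl-14* was at 0.04, the respiratory chain median at 0.31 and the yolk, collagen and matrix median at −0.96. Leaving out single libraries gave −0.35 to 0.04 for *gpd-3* (TRINITY_DN79428_c0_g2_i1_9dedup), −0.09 to 0.07 for *pccb-1*, −0.18 to 0.12 for *rpl-14*, −0.36 to 0.06 for *tnt-2*, −0.07 to 0.16 for *ubq-1-3*, and −0.15 to 0.70 for the immune and digestive median. The cause of these changes was not tested. Depth limits the lowest transcripts: of the 4297 with the lowest CPM none had a 95% interval within 1.5-fold, against 60.8% of the 4297 with the highest.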
